A study of Mus musculus with 12 samples.

Results

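Ighd3-2, also called DST4, is a D segment of the mouse immunoglobulin heavy chain locus, and its rearrangements were followed here through the residues SSGY (serine, serine, glycine, tyrosine) that it encodes in its commonly used reading frame. A rearrangement was counted where the third complementarity determining region (CDR3) of the heavy chain held SSGY, and 6959 of 546610 unique translated sequences with a located CDR3 did so (1.27%). These sequences had 2624 distinct CDR3s. The RNA came from splenic B cells of 12 female 14-week-old MRL/lpr mice, a lupus-prone strain homozygous for the Fas lpr mutation, 6 given control SMO and 6 given LFPRLR SMO by subcutaneous minipump. LFPRLR SMO is a splice-modulating oligomer against the long form of the prolactin receptor, and the study asked whether it altered the B cell repertoire. Heavy chain transcripts were amplified with a primer for the J558 VH family and a primer for the Cμ constant region, so rearrangements to other VH families and class-switched transcripts were not sampled. Heavy chain transcripts alone were measured, so the B cell label was not checked against other genes.

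The heavy chain CDR3 is formed when a D segment is joined first to a J segment and then to a VH segment, with bases removed and added at both joints. Each D segment can be read in 3 frames, and it supplies residues at the centre of the antigen-binding loop. In the RefSeq annotation of GRCm38.p6, Ighd3-2 is a D segment of 16 bases on chromosome 12, with Ighd4-1 between it and the J segments and the pseudogene Ighd5-6 on its other side. The deposited tables name no genome build or D segment, so the assignment rests on the motif. The same annotation lists Ighd3-1, a D segment of 17 bases. No germline sequence of either segment was available, so whether some SSGY CDR3s came from Ighd3-1 was not tested. Somatic mutation, or bases added at the joints, can also give or remove SSGY.

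Libraries held 130635 to 227202 reads, except LFPRLR SMO replicate 6 with 627 reads and 5 SSGY sequences. Shares from that library carry little weight, and values are given without it where it changes them. Libraries fell into 2 sets by the bases at the Cμ end, with 3 control and 3 LFPRLR libraries in each. An alternative end was on 31.9% to 39.6% of the sequences of control replicates 4, 7 and 9 and LFPRLR replicates 3, 4 and 7, and on at most 2.18% in the other set. Among libraries of the same group, 3 pairs shared 34 to 45 of their 50 commonest V-D-J sequences. These pairs were control replicates 4 and 8, control replicates 5 and 7, and LFPRLR replicates 4 and 5. Some values with each such pair averaged are given below. Of the 50 commonest, LFPRLR replicate 6 shared 12 with control replicate 4, 9 with control replicate 8 and 8 each with control replicates 5 and 7. In its own group it shared 9 with replicate 8, 5 each with replicates 4 and 5, and 3 or fewer with the others. Other pairs between the groups shared at most 2. The 5 SSGY CDR3s of LFPRLR replicate 6 were all in another library too, 4 of them in a control library. The same count was not made over all CDR3s of that library, so these 5 cannot be set against them. Whether its reads came from its own mouse was not tested. A read or a unique sequence does not stand for a separate molecule, and intervals of shares cover counting error only.

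The bases behind the motif were nearly uniform. Among 8609 unique nucleotide sequences that encoded SSGY, 7848 (91.2%) used the same 12 bases. By library that share ran from 86.0% in LFPRLR replicate 8 to 94.0%, leaving out replicate 6, whose few members all had them. The serine codons were AGC followed by a codon starting with TC in 98.1% of these sequences, and both were AGT or AGC in 13 (0.151%). The 12 bases, and the same bases with the commonest 3 bases before them, are shown because every later count of the Ighd3-2 core uses them, with the motif codons in capitals.
Core: AGCTCGGGCTAC
Core with the bases before it: gacAGCTCGGGCTAC
The base before the core was C in 88.7% of carriers, and the 3 bases before it were gac, an aspartate codon, in 54.7%. They were ggc in 12.1% and cac, a histidine codon, in 11.9%. Accordingly, aspartate was the residue ahead of SSGY in 56.0% of members and glycine in 16.6%.

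The CDR3s found in the most libraries were 6 that each occurred in 8 of the 12, and they are shown in their commonest encoding because they recurred between libraries. Capitals mark the SSGY codons, and each run goes from the first base after the cysteine codon of VH to the last base before the tryptophan codon of J.
CDR3 A: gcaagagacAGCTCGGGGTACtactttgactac
CDR3 B: gcaagagacAGCTCGGGCTACtttgactac
CDR3 C: gcaagaAGCTCGGGCTACtactttgactac
CDR3 D: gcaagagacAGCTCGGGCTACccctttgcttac
CDR3 E: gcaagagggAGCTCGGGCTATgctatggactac
CDR3 F: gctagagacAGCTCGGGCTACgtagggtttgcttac
They were 10 to 12 residues long, with 2 or 3 residues ahead of the motif. CDR3s A, B and C ended in JH2, D and F in JH3, and E in JH4. None ended in JH1. Their reads over all libraries were few, from 21 for F to 196 for A. CDR3 A had 80 reads in control replicate 8, 59 in LFPRLR replicate 7 and 36 in control replicate 4, and 1 to 10 reads in the other 5 libraries that held it. It was encoded in 2 ways, CDR3 F in 6 ways.

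The CDR3 with the most reads in each library is shown next, since reads rather than unique sequences mark abundant transcripts. In control replicate 5 it was CDR3 C, with 19 reads, and in LFPRLR replicate 6 each of the 5 members had 1 read.
CDR3 G, control replicates 4 and 9: gcacacAGCTCGGGCTACtactttgactac
CDR3 H, control replicate 3: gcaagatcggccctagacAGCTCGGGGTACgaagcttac
CDR3 I, control replicate 7: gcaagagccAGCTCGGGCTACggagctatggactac
CDR3 J, control replicate 8: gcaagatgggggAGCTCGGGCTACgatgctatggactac
CDR3 K, LFPRLR replicate 3: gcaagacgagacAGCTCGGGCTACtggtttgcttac
CDR3 L, LFPRLR replicates 4 and 5: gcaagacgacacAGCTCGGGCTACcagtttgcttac
CDR3 M, LFPRLR replicate 7: ctagacAGCTCGGGCTACtactttgactac
CDR3 N, LFPRLR replicate 8: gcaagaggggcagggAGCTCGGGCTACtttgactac
CDR3 G had 2319 reads in control replicate 9, which were 40.4% of the SSGY reads of that library, and 334 reads in control replicate 4 (17%). Apart from these libraries it had 2 to 10 reads in 4 others. It starts with alanine and histidine codons. CDR3 L had 129 reads in LFPRLR replicate 4 and 139 in LFPRLR replicate 5, the pair of libraries that also shared other abundant sequences. CDR3 N had 232 reads, M 221, J 147, H 69, K 64 and I 40 in their own libraries. In the 11 larger libraries the commonest member took 3.23% to 40.4% of the SSGY reads, and the 10 commonest together took 22.7% to 68.3%.

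The share of unique sequences with an SSGY CDR3 did not differ between the groups beyond the spread between mice. In control SMO libraries the share had a lowest value of 0.874%, a median of 1.16% and a highest of 2.17%. In LFPRLR SMO libraries it had a lowest value of 0.932%, a median of 1.16% and a highest of 1.36%. The LFPRLR range lay inside the control range, and the highest 2 values were both controls (replicate 9 at 2.17%, 95% Wilson interval 2.06% to 2.28%, and replicate 4 at 1.56%, 1.46% to 1.68%). In the order of the 12 shares, only these neighbours had intervals that did not overlap. The medians differed by 0.00226 percentage points (p = 0.937 by a two-sided exact rank-sum test of Mann and Whitney on 6 libraries per group, adjusted p = 1 over 9 measures). The interval of the shift, from the inverted test at 95.9% coverage, ran from -0.808 to 0.285 points. Within the set with the alternative Cμ end the difference was -0.403 points (exact p = 0.4), and in the other set it was 0.256 (exact p = 0.7), where 3 against 3 libraries cannot go below p = 0.1.

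As a background for this comparison, the same test was run on every run of 4 residues with a mean share of at least 0.5%. Of 193 such motifs, 15 (7.77%) had an exact p under 0.05, 2 of them higher and 13 lower in LFPRLR SMO, and 0 (0%) passed after Benjamini-Hochberg adjustment of the exact Mann–Whitney p. SSGY was not among the 15, and 163 motifs had a smaller p. The 3 motifs whose share ran most like that of SSGY over the 12 libraries, among those of which under 10% of carriers also held SSGY, were ARYG (Pearson r = 0.85, Spearman rho = 0.60), RRDY (r = 0.76, rho = 0.66) and YYFD (r = 0.66, rho = 0.50). Without the 2 libraries farthest from the median SSGY share, r was 0.30, 0.43 and 0.28. Leaving out those libraries also narrows the range of SSGY shares, so the lower r cannot show whether the likeness rested on them. The shares of all motifs in a library come from the same amplification.

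By reads the share was more variable. It ran from 0.445% to 3.25% in control SMO, with a median of 0.932%, and from 0.725% to 1.55% in LFPRLR SMO, with a median of 0.937%. The 6 LFPRLR values lay inside the control range (exact Mann–Whitney p = 0.818, n = 6 per group, adjusted p = 1). Control replicate 9 was the highest, and without its CDR3 G the share there was 1.96%. With the commonest member of each library left out, the medians were 0.878% and 0.823% (exact p = 0.818).

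**Figure D1:**
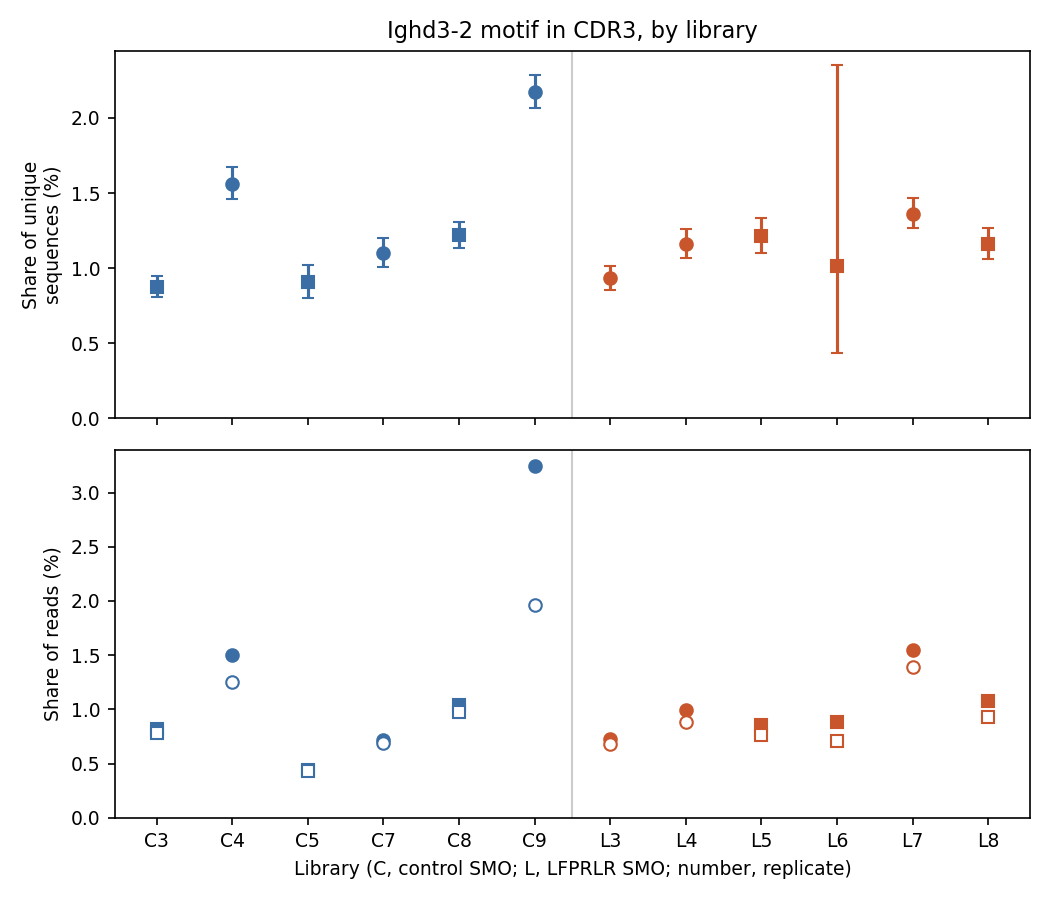
Share of unique sequences (upper, with 95% Wilson intervals) and of reads (lower) whose CDR3 held the Ighd3-2 motif, in percent, for each library; blue is control SMO, red is LFPRLR SMO, circles are libraries of the set with the alternative Cμ end, squares those of the other set, and open symbols leave out the commonest such CDR3 of the library. Control replicate 9 stands highest in both panels, at 2.17% of unique sequences and 3.25% of reads, and the wide interval belongs to LFPRLR replicate 6.

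The core of 12 bases also occurred outside the SSGY frame. It was found between VH and J in 16175 in-frame rearrangements and in 904 out-of-frame ones, and its carriers were 1.76% to 3.45% of the nucleotide sequences of a library. In-frame rearrangements read it as SSGY in 48.3%, through the residues ARA (alanine, arginine, alanine) in 31.2% and through LGL (leucine, glycine, leucine) in 20.5%. In the 11 larger libraries the SSGY frame took 27.1% to 71.3% of in-frame carriers, and its median over 12 libraries was 49.2% in control SMO and 44.0% in LFPRLR SMO. The extremes were control replicate 9, which holds the many sequences of CDR3 G, and LFPRLR replicate 3. Out-of-frame rearrangements were a median of 3.72% of carriers and 3.49% of sequences without the core, and sequencing errors that shift the frame cannot be told apart from such rearrangements here.

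**Figure D2:**
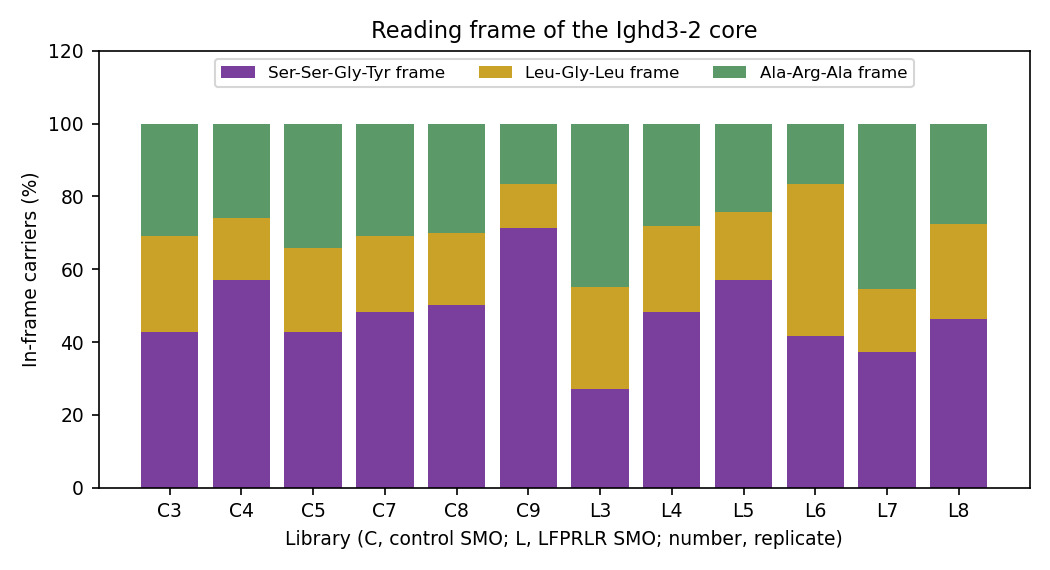
Reading frame of the Ighd3-2 core among in-frame rearrangements that hold its 12 bases, as percent of those carriers in each library (C, control SMO; L, LFPRLR SMO). The Ser-Ser-Gly-Tyr frame is the lowest part of each bar and ranges from 27.1% in LFPRLR replicate 3 to 71.3% in control replicate 9; the bar of LFPRLR replicate 6 rests on 12 sequences.

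The J partner was a feature in which SSGY CDR3s stood apart. JH1 lies nearest to the D segments, and it was rare among them. In control SMO its share of members had a lowest value of 1.14%, a median of 1.73% and a highest of 2.44%, and in LFPRLR SMO 0%, 1.45% and 3.07%, where the 0% is that of replicate 6, in which 0 of 5 says little. Among all other CDR3s of the same libraries JH1 took 8.25% to 13.3%. Every library had a lower JH1 share in members than in the rest (12 of 12), the values did not overlap, and the median difference was -7.51 percentage points (two-sided exact sign-flip test over 12 libraries, p = 0.000488, the smallest possible, adjusted p = 0.00171 over 7 measures). The difference was -7.60 points in the set with the alternative Cμ end and -7.24 in the other. With the rest weighted to the members' CDR3 lengths it was -8.73 points, and with only distinct CDR3s counted it was -6.97 (both exact p = 0.000488). With the 3 pairs of libraries averaged it was -7.65 points (exact sign-flip p = 0.00391).

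Other D motifs were also used as the comparison. Against CDR3s with a tyrosine-frame motif of the Ighd2 family, a large family of D segments that lies farther from J, the JH1 share of members differed by -6.57 points (exact p = 0.000488). The motif YGSS, which Ighd1-1 encodes in other mouse strains, was in only 286 sequences of this series, 4 or fewer in 8 of the 12 libraries, and against these few the JH1 difference turned to 0.568 points (exact p = 0.0625). Against CDR3s with YDGS, a common motif here that was chosen after its values were seen, the difference was -12.9 points (exact p = 0.000488). Among nucleotide sequences with the core read in any frame, JH1 took 1.39% of those in the SSGY frame, 0.635% of those in the LGL frame, 0.713% of those in the ARA frame and 1.33% of those out of frame. Sequences without the core had 9.60% JH1 when in frame and 8.75% when out of frame. These last shares are pooled over libraries and given without a test.

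JH3 had the highest median share among the partners in the 11 larger libraries, 37.5%, with a range of 34.4% to 43.7%. All other CDR3s of these libraries had 25.6% to 29.7% JH3, so members were higher in each of the 11. Over all 12 libraries the median difference was 8.75 points but did not pass (exact sign-flip p = 0.0601, adjusted p = 0.140), since LFPRLR replicate 6 had JH3 in 0 of 5 members. Without that library it was 8.81 points (exact p = 0.000977, the smallest that 11 libraries allow). With all libraries kept it passed, not adjusted, with distinct CDR3s (10.2 points, exact p = 0.0327) and with lengths weighted (10.3, exact p = 0.0347). It did not with the 3 pairs of libraries averaged (8.81 points, exact p = 0.223). Of 23 alternatives, 9 brought the exact sign-flip p of JH3 below 0.05 and 14 did not. With JH1 sequences left out of both sides the JH3 difference was 6.54 points (exact p = 0.243 over 12 libraries), and 6.71 points when LFPRLR replicate 6 was left out as well (exact p = 0.000977 over 11 libraries). JH2 took a median of 33.4% of members and 32.5% of the rest, while the median of the differences within libraries was -0.650 points (exact p = 0.853). JH4 took 27.9% and 28.8% (exact p = 0.823). For these segments 5 libraries were higher and 7 lower among members. With JH1 sequences and LFPRLR replicate 6 left out, a setting added after seeing the data, members had less of both. The shares of JH2, JH3 and JH4 then make up nearly the whole, so this is not separate from the higher JH3 share. The differences were -4.72 points for JH2 (exact p = 0.00293 over 11 libraries, not adjusted) and -4.14 for JH4 (exact p = 0.0195). With the rest weighted to the members' CDR3 lengths, over 12 libraries, they were 3.85 points for JH2 (exact sign-flip p = 0.00781) and -5.23 for JH4 (exact p = 0.0342). The direction for JH2 thus depended on the comparison.

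Between the treatment groups no J share of the members differed beyond the spread between mice. The difference in medians, LFPRLR minus control, was -0.284 points for JH1 (exact Mann–Whitney p = 0.485, n = 6 per group), -1.79 for JH2 (exact p = 0.818), -0.919 for JH3 (exact p = 0.818) and 2.48 for JH4 (exact p = 0.699). All adjusted p were 1. Without LFPRLR replicate 6 these differences were -0.0699 points for JH1, -3.52 for JH2, 0.0973 for JH3 and 1.99 for JH4 (exact p = 0.429 or more). The intervals of the shift over all 12 libraries were wide for 3 of the J segments. They ran from -6.59 to 23.3 points for JH2, -34.5 to 6.02 for JH3 and -5.51 to 12.9 for JH4, against -1.56 to 0.638 for JH1. The smallest exact p for a J share was 0.48 with labels permuted within the library sets and 0.4 in either set alone.

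**Figure D3:**
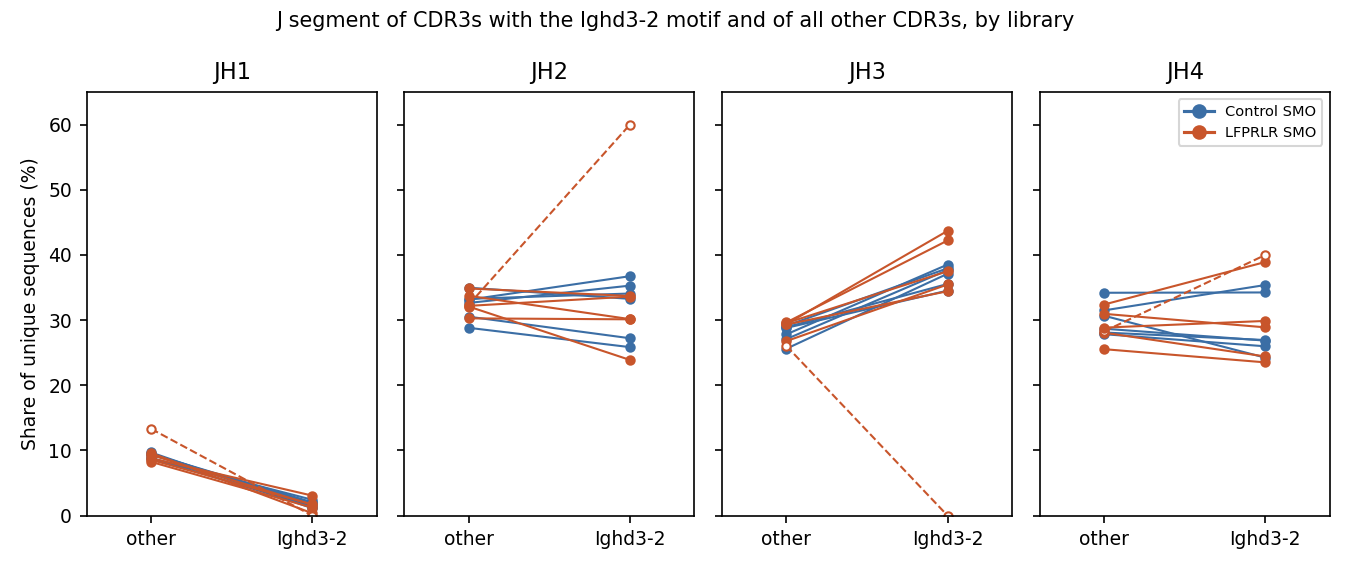
Share of unique sequences that end in each J segment, in percent, for all other CDR3s (left point) and for CDR3s with the Ighd3-2 motif (right point) of the same library, joined by a line; blue is control SMO, red is LFPRLR SMO, and the dashed line with open points is LFPRLR replicate 6, with 5 members. The JH1 share is lower with the motif in 12 of 12 libraries, and the JH3 share is higher in the 11 larger ones.

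SSGY CDR3s were on average longer than the rest, which is in part built into the rule, since a longer CDR3 has more places for the motif. Their mean length was 11.9 to 12.7 residues in the 11 larger libraries, against 10.7 to 11.6 for all other CDR3s. The median difference was 1.12 residues, longer in 12 of 12 libraries. The commonest length was 12 residues (21.4% of members), followed by 13 (19.7%), while 11 (15.5%) was commonest in the rest. Only 3.51% of members had 8 residues or fewer, against 17.4% of the rest. Compared with CDR3s that held an Ighd2 family motif the sign turned, and members were shorter by a median difference of -0.432 residues (exact sign-flip p = 0.000977).

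Length followed the J partner. With JH2 the median of the library means was 11.2 residues, with JH3 12.2 and with JH4 13.3, each about 1 to 2 residues above the rest with the same J (10.2, 10.7 and 12). The 119 members with JH1 had 12 and the rest with JH1 12.1. SSGY most often stood 3 (33.4%) or 4 (30.4%) residues into the CDR3 and was most often followed by 4 (26.5%) or 5 (22.7%) residues. Valine was the commonest residue after it (25%). The VH end was YYC in 81.2% of members at the library median, against 81.8% of the rest, and the first residues were alanine and arginine in 75.7% and 72.2%. In control replicate 9 the CDR3 started with alanine and histidine in 18% of members, against a median of 0.629% over libraries.

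Length did not differ detectably between the treatment groups. The mean ran from 11.9 to 12.5 residues in control SMO, with a median of 12.2, and from 11.6 to 12.7 in LFPRLR SMO, with a median of 12.1. The difference in medians was -0.0589 residues (exact Mann–Whitney p = 1, n = 6 per group), with an interval of the shift from -0.436 to 0.410 residues. Without LFPRLR replicate 6 it was -0.0141 residues (exact p = 0.662).

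**Figure D4:**
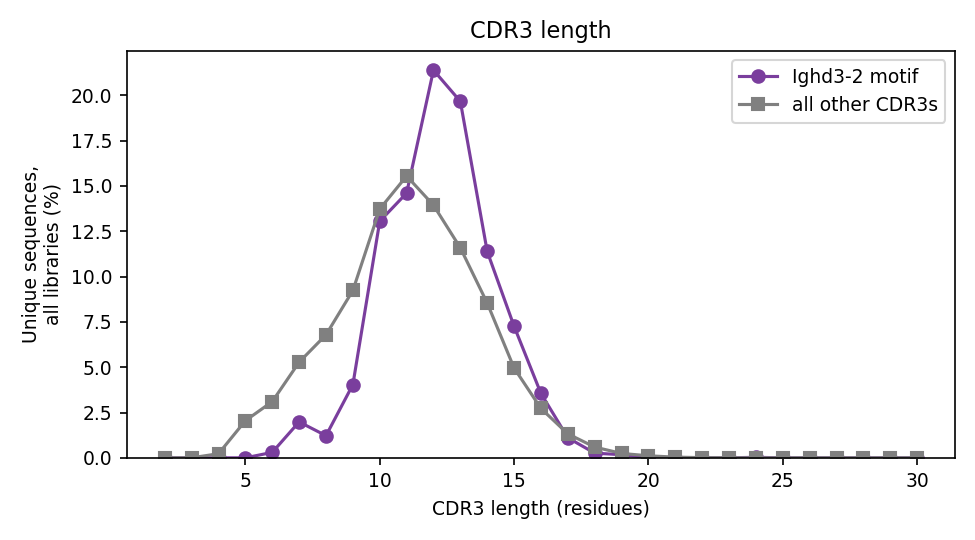
CDR3 length in residues of unique sequences with the Ighd3-2 motif (circles) and of all other unique sequences (squares), pooled over the 12 libraries and given as percent of each class. The class with the motif peaks at 12 residues (21.4%) and has few members of 8 residues or fewer.

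Reads per SSGY sequence were low in both groups. Mean reads per member were 2.21 to 3.90 in control SMO, with a median of 2.49, and 1 to 3.41 in LFPRLR SMO, with a median of 2.55 (exact Mann–Whitney p = 0.485, n = 6 per group). The difference of 0.0526 reads became 0.411 without LFPRLR replicate 6 (exact p = 0.792). Mean reads per sequence among all other CDR3s had a median of 2.63 over the libraries. Members had fewer reads per sequence in 10 of 12 libraries, with a median difference of -0.316 (exact sign-flip p = 0.116, adjusted p = 0.203). Control replicate 9, where CDR3 G is abundant, went the other way with 3.90 reads per member against 2.58, and without that library the difference was -0.375 (exact p = 0.00879). LFPRLR replicate 7 was also higher. A mean of reads depends on a few abundant sequences, such as 1 with 8717 reads among the rest of control replicate 5. The most there for a member was 14. These means therefore cannot show whether a typical member was read less often. The share read once, members minus rest, had a median difference of 0.517 points, higher in 8 libraries and lower in 4 (exact sign-flip p = 0.398).

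The share of members with a single read was 57.2% to 69.8% in control SMO, with a median of 63.1%, and 59.5% to 100% in LFPRLR SMO, with a median of 67.8%. The groups overlapped and the difference of 4.69 points did not pass (exact Mann–Whitney p = 0.240, n = 6 per group, adjusted p = 1). Without LFPRLR replicate 6 it was 2.00 points (exact p = 0.429), and with each library left out in turn it ran from 2.00 to 7.37, higher without an LFPRLR library of the set with the alternative Cμ end and lower without one of the other set. Single-read shares were higher in the set without the alternative Cμ end, while the group difference was of like size in both sets, 5.71 points in the set with that end (exact p = 0.2) and 4.84 in the other (exact p = 0.1, the smallest that 3 against 3 libraries allow). With labels permuted within the sets the difference was 5.27 points (exact p = 0.02, not adjusted over the 9 measures), or 4.85 without LFPRLR replicate 6 (exact p = 0.02). In all other CDR3s the same within-set difference was 1.35 points (exact p = 0.18). Whether the difference of members is larger than that of the rest was not tested within the sets.

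**Figure D5:**
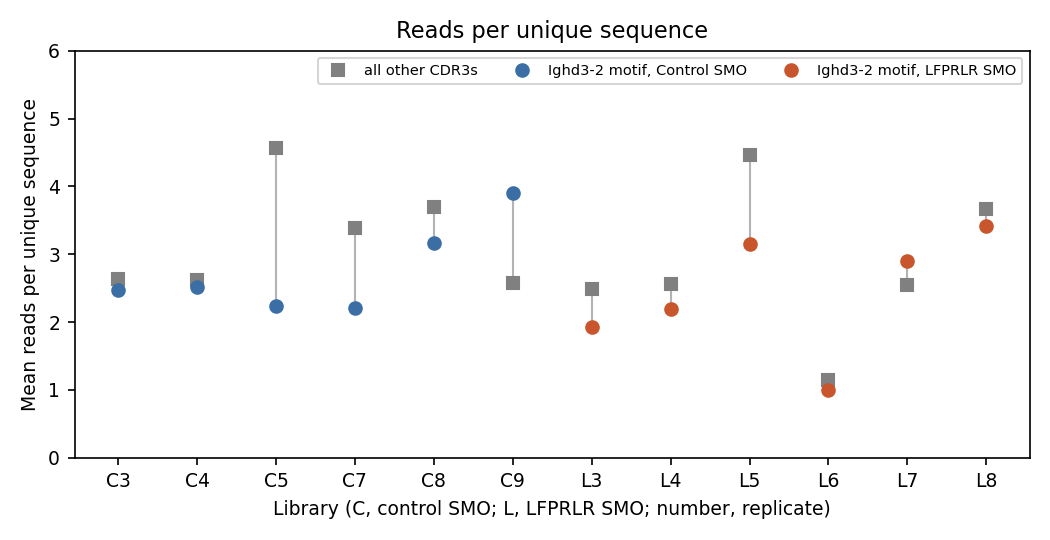
Mean reads per unique sequence in each library for CDR3s with the Ighd3-2 motif (circles; blue is control SMO, red is LFPRLR SMO) and for all other CDR3s (squares). Members lie below the rest in 10 of 12 libraries, and control replicate 9 (3.90 against 2.58 reads) and LFPRLR replicate 7 lie above it.

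Most member CDR3s were private to a library. Of the 2624 distinct SSGY CDR3s, 2111 (80.4%) were in 1 library, 317 in 2, 102 in 3, and none in more than 8. Among all other distinct CDR3s 81.7% were in 1 library. In both treatment groups 208 SSGY CDR3s were found (7.93%), against 7.23% of all others. Numbers in common are given without a test and without the small library. Libraries of the same group and set had a median of 51.5 SSGY CDR3s in common, and libraries of the same group but different sets had 22. The same-set values were 46 to 118 in the set with the alternative Cμ end but only 8 to 17 in the other set. The 3 pairs with many abundant sequences in common each lie across the sets, and they had 57 to 87 SSGY CDR3s in common, above the same-set median. Without them the median across sets was 20. Between the groups the medians were 22 within a set and 14 across sets. Within a set the values between groups were 14 to 55 with the alternative Cμ end and 6 to 17 in the other set. Control replicates 4 and 9, which both lead with CDR3 G, had the most in common, 118 CDR3s, which were 31% of those of replicate 4 and 20.8% of those of replicate 9. Whether sequences passed between libraries during their preparation was not tested.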

How the data were processed

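Heavy chain transcripts of splenic B cells from 12 mice were amplified with J558 VH and Cμ primers and sequenced as paired reads on a MiSeq. For each mouse the authors deposited read counts of unique nucleotide sequences and of unique translations, as raw counts without normalization. The aligner or read merger, trimming and filters are not given in the sources used here, and no molecular identifiers are described. In LFPRLR SMO replicate 5 the counts of the translated table sum to 171560 and those of the nucleotide table to 167962.

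Translations without a stop were searched for a CDR3, the residues between the cysteine of YYC, YFC, FYC or FFC ending at residue 16 to 30 and the tryptophan of the last WGQGT, WGAGT or WGTGT, and 91.6% to 95.7% had one. Members held SSGY. J segments were named from the residues after that tryptophan motif (TV for JH1, TL for JH2, LV for JH3, SV for JH4). For the core in any frame, J was found from the 12 commonest framework bases of each segment, which left 2.84% to 7.03% of sequences unassigned.

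For each measure the difference in group medians was tested by enumerating the 924 arrangements of the Mann–Whitney U statistic (two-sided, smallest p 0.00216), the study's test. Members and rest were compared within libraries by the median difference and a two-sided exact sign-flip test of the mean difference over 4096 arrangements. Benjamini-Hochberg adjustment covered 9 group measures, 7 within-library measures and, for motifs, all 193. Each library is 1 mouse per the study. CDR3s named were the commonest member of each library and the 6 found in the most libraries. The members and lists were chosen with earlier results of these data known. Alternatives were at least 2 reads, DSSGY, nucleotide tables, distinct CDR3s, J from CDR3 ends, other comparison CDR3s, averaged pairs, library sets, the replicate block and each library left out. Those added after seeing the data were the core bases as the rule, YDGS as the comparison, JH1 left out with and without replicate 6, the commonest CDR3 left out, and replicate 6 left out within sets. The scripts, tested on simulated data, used Python 3.11.15, NumPy 2.4.6 and SciPy 1.17.1, with figures by Matplotlib 3.10.9.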

Additional observations from a re-analysis of the deposited data

Results flagged for a closer look

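In groups of 6 libraries, a library was singled out where its gap to the nearest of the others, divided by the range of the group, exceeded Dixon's 95% critical value. Of 32 groups of values examined, 6 were singled out, and chance alone gives about 1 in 20.

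LFPRLR SMO replicate 6, with 5 members, accounted for 5 of the 6. Its JH2 share of members was 60%, against 33.7% in the nearest LFPRLR library, and its JH2 share of members minus that of the rest was 27.6 percentage points, against 1.42. Its JH3 share of members was 0%, against 34.4%, and minus the rest it was -26.0 points, against 5.11. Its share of members with a single read was 100%, against 72.1%.

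In control SMO replicate 9 the share of sequences with a single read, members minus rest, was -4.91 points, while the nearest control library had -0.454. That library is also the one with 2319 reads of a single SSGY CDR3.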

How the results depend on the processing

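Differences between the groups (LFPRLR minus control, medians) turned sign under 9 of 22 alternatives for the share of unique sequences, 11 of 21 for reads, 7 of 22 for length, 10 of 22 for JH3, 4 of 22 for JH2, 3 of 22 for JH4, 1 of 22 for JH1 and 6 of 20 for reads per member, and under 0 of 20 for the single-read share. No exact p under them fell below 0.05 apart from that of the single-read share within library sets. The lower JH1 share of members kept its direction and its side of the threshold under all alternatives except the comparison with YGSS, where 8 of 12 libraries had 4 or fewer sequences, and so did their greater length except where the comparison was with other D motifs. Precision is limited by 264 to 1470 members in the larger libraries and 5 in LFPRLR SMO replicate 6, which has none with at least 2 reads and was left out there. Leaving out sequences with undetermined residues could not change a value, since the translations hold none, and the single-read share has no value for sequences with at least 2 reads.

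With at least 2 reads the difference was -0.0770 points for the share of unique sequences, -0.0480 for that of reads, 0.172 residues for length, 0.613 points for JH1 and 5.25 for JH3. With distinct CDR3s it was -0.00808 for the share and 1.76 for JH3. With the 3 pairs averaged it was -0.0353 for the share, -0.122 for reads and 0.940 for JH2. Within library sets it was -0.0737, -0.223, 0.0623 residues, 1.22 for JH2, 1.44 for JH3 and 5.27 for the single-read share (4.85 without LFPRLR SMO replicate 6). Means in place of medians gave -0.165 for the share, -0.282 for reads, 3.17 for JH2 and -0.320 reads per member. Length weighted by reads gave 0.144. Nucleotide tables gave 0.0244 for JH3 and -0.127 reads per member, and members with the core bases 2.15 for JH3, -0.276 for JH4 and -0.124 reads per member. J from CDR3 ends gave 0.542 for JH3, and DSSGY -0.581 for JH4. Without the commonest CDR3 of each library the share differed by -0.0318 and that of reads by -0.0556.

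Replicate numbers 3, 4, 5, 7 and 8 occur in both groups but mark different animals. The deviations of same-numbered libraries over motifs correlated at -0.0516 to 0.0214. Libraries numbered 4 and 7 were of the set with the alternative Cμ end in both groups. Those numbered 5 and 8 were of the other set in both, while number 3 differed. Whether same-numbered libraries were prepared together was not tested. No control library correlated best with its own number. The replicate block, whose smallest p is 0.0625, gave 0.0573 points for the share, 0.0351 for reads, 0.128 residues, -0.235 for JH1, 0.347 for JH2, 2.97 for JH3, -2.43 for JH4, 0.249 reads per member and 2.36 for the single-read share, and called 0 motifs.

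For members minus rest, YGSS as the comparison gave -0.494 residues, 0.568 points for JH1, 24.3 for JH4, 1.08 reads and -16.8 for the single-read share. Ighd2 motifs gave -0.432 residues, 0.292 for JH2 and 9.48 for JH3. YDGS gave -1.36 residues, -6.54 for JH2, 12.5 for JH3, 7.76 for JH4, 0.136 reads and -0.276 for the single-read share. Weighting to the members' lengths gave 3.85 for JH2, 10.3 for JH3, -5.23 for JH4 and -0.166 for the single-read share. At least 2 reads gave 1.89 for JH2 and 9.85 for JH3. DSSGY gave 14.6 for JH3 and -0.401 reads, and distinct CDR3s 10.2 for JH3 and 0.462 for JH4. Averaged pairs gave 1.06 residues, -7.65 for JH1 (exact sign-flip p = 0.00391), 8.81 for JH3 (exact p = 0.223) and 0.0483 for JH4. The core bases gave 0.70 for JH2 and 10.6 for JH3. With JH1 sequences and LFPRLR SMO replicate 6 left out it was -4.72 for JH2 (exact p = 0.00293), 6.71 for JH3 and -4.14 for JH4 (exact p = 0.0195). The cause of these changes was not tested.

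With each library left out in turn the group differences ran from -0.0571 to 0.0617 for the share, -0.108 to 0.117 for reads, -0.159 to 0.0415 residues, -0.498 to -0.0699 for JH1, -3.52 to -0.0624 for JH2, -1.93 to 0.0973 for JH3, 1.99 to 2.97 for JH4, -0.305 to 0.411 reads per member and 2.00 to 7.37 for the single-read share, and motif calls stayed at 0. For members minus rest JH3 ran from 8.68 to 8.81, past the threshold only without LFPRLR SMO replicate 6, and reads from -0.375 to -0.258, past it only without control SMO replicate 9.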
